A study of Mus musculus with 36 samples.

Results

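What liver and kidney each expressed on the same diet was described from 10 of the 36 libraries of the series, namely all 5 liver and all 5 kidney libraries of mice kept on the control diet. The control diet held 12% of its energy as fat, 10% as protein and 78% as carbohydrate per the sample labels, while the series' own description gives a lower carbohydrate share, a conflict that cannot be settled here. All 10 libraries came from male mice of the strain C57BL/6 NIA, aged 12 months, with collection at night, the hours in which mice mostly eat. The labels name no allele, transgene or drug for these mice. RNA came from whole tissue, so fewer cells of a type and less RNA per cell cannot be told apart. The deposited counts come as 1 table per organ, and the tables do not use the same gene models: 31775 genes outside the mitochondrial chromosome were in both, of which 67.9% had the same start and end. Organ and table cannot be told apart, and for that reason only differences of at least 8-fold are called here.

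Liver hepatocytes secrete most plasma proteins, make bile acids from cholesterol, detoxify ammonia as urea and turn dietary carbohydrate into fat. The kidney filters plasma in the glomerulus and takes back salts, sugars, amino acids and small proteins along the tubule, first in the proximal tubule and then in the loop of Henle, the distal tubule and the collecting duct. Both organs make glucose, oxidise fatty acids and clear foreign compounds, in part with different members of the same gene families.

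Kidney libraries held 29.3 to 33.9 M counts and liver libraries 18.9 to 35.9 M. Transcripts of the mitochondrial chromosome took 71.5% ± 2.42 of kidney counts and 59.6% ± 6.77 of liver counts (SD, n = 5 each, as for all values with ± unless marked SE), a difference of 11.9 percentage points (two-sided exact permutation p = 0.0159; the smallest possible is 0.00794). Organ and table cannot be told apart for these shares either, and they differ by far less than the fold limit set for calling genes. Whether the difference came from the organs or from how each table was made was not tested. Leaving the mitochondrial genes out left 7.43 to 10.7 M counts per kidney library and 7.42 to 14.6 M per liver library. Liver replicate 0 stood apart from the others: its chi-square per degree of freedom against them was 73.2 to 114, against 32.9 to 60.3 among the other 4 liver libraries. It also held more of several other cell types' markers: the macrophage list took 0.0602% of its counts against 0.0226% to 0.0314% in the other liver libraries, and the stellate cell and fibroblast list 0.106% against 0.0537% to 0.0634%. Their part in the results was not tested. The labels do not say that each library came from its own mouse, so p-values measure the spread between these libraries.

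The organs were told apart by their defining genes in every library. Of the 12 hepatocyte markers tested, 10 were called higher in liver, and their summed level was 133441 to 176168 CPM (counts per 1000000 counts) in liver and 1682 to 2866 CPM in kidney. CPM here leaves out the mitochondrial chromosome and is scaled by TMM factors. Most of the kidney sum came from Cyp2e1 and Hnf4a, genes the kidney also expresses. Of 43 proximal tubule genes, 37 were called higher in kidney. The podocyte gene Nphs1 (nephrin) of the glomerulus had 5.46, 6.59, 10.2, 4.83 and 8.52 CPM in kidney replicates 0 to 4 and 1 count in all liver libraries. Glomerular markers as a list were less distinct: 4 of 10 were called higher in kidney and 6 were not called (median log2 difference -2.3). In liver 6 of the 10 had a mean above 1 CPM.

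Of 13841 genes tested with edgeR's quasi-likelihood test, 788 (5.69%) were called higher in liver and 1330 (9.61%) higher in kidney, 15.3% in all. These shares are the background for each list below. Called means a Benjamini-Hochberg adjusted p below 0.05 and a difference of at least 8-fold. Without liver replicate 0 the counts were 824 and 1451 among 14190 genes tested, a larger set. Of the 788 and 1330 calls, 759 and 1259 were kept there. Of the called genes 37.2% were higher in liver, a share that was 26.1% when libraries were scaled by their totals alone, a scaling that moved the median log2 difference of all genes by -0.705. Of 217 genes named here and tested, 18 lost their call under at least 1 alternative with the same 8-fold limit, mostly genes whose log2 difference was near 3 in size; they are Acaa2, Acsl1, Agt, Alas2, Aqp4, Bckdha, Cidea, Cidec, Cyp2a4, Dcn, Emcn, Eno2, Esrrg, Fabp4, Fdft1, Podxl, Slc4a4 and Sox9. The largest adjusted p among the named genes called was 0.0206 by edgeR. At any size, 25.5% of genes passed the test as higher in liver and 27.9% as higher in kidney, and the ranges over libraries did not overlap between organs for 44.2% of genes. The plot of mean levels shows both arms: genes at a high level in 1 organ and near 0 in the other, on either side of a broad diagonal.

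**Figure D1:**
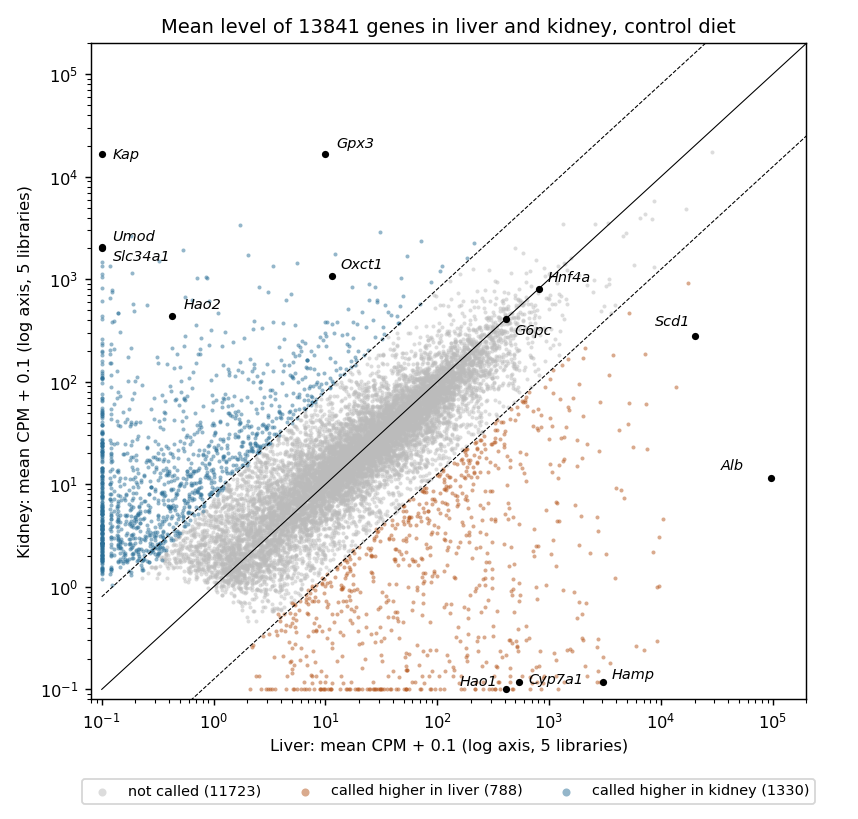
Mean CPM over 5 libraries in liver (x axis) and kidney (y axis), both with 0.1 added and on log axes, 1 point per gene tested; the solid line marks equal levels and the dashed lines an 8-fold difference. Called genes are coloured (788 higher in liver, 1330 higher in kidney), and Kap and Alb lie at the ends of the 2 arms while Hnf4a and G6pc lie on the diagonal.

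Liver RNA was concentrated in fewer genes. Alb (ENSMUSG00000029368, mm9 chromosome 5, 90889915 to 90905629), which encodes albumin, the main protein of plasma, took 7.16% ± 0.554 of liver counts (SD, n = 5) and was the highest gene of every liver library. The 10 highest genes held 17.6% ± 1.29 of counts in liver and 10.3% ± 1.28 in kidney, and the highest 100 held 39.5% ± 1.88 and 24.2% ± 0.435. It took 180 to 288 genes to reach 50% of the counts in a liver library and 682 to 720 in a kidney library, so the ranges did not overlap.

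Ranked by CPM per kilobase of gene length, the highest liver genes were mostly secreted or lipid-binding proteins, beside the short or repeat-like entries given below. Alb stood at 47675 ± 4239.7 CPM per kilobase, Ttr (transthyretin, a carrier of thyroid hormone and retinol-binding protein) at 22384 ± 3122, Apoa2 at 19511 ± 4680.3 and Apoc1 at 16778 ± 5498, the last pair being apolipoproteins (SD, n = 5). Fabp1, the liver fatty acid binding protein, reached 16776 ± 4139 CPM per kilobase, the urinary pheromone carrier Mup20 10034 ± 5189, and Sepp1 (selenoprotein P, which carries selenium in plasma) 8206 ± 3420.4. In kidney the order was led by Kap (ENSMUSG00000032758, mm9 chromosome 6, 133799873 to 133803685), the androgen-controlled kidney protein, at 27698 ± 4257 CPM per kilobase and Gpx3, the plasma glutathione peroxidase that the proximal tubule secretes, at 9215 ± 1984. The ferritin heavy chain gene Fth1 (3958 ± 609), the cellular glutathione peroxidase Gpx1 (3144 ± 624) and the trypsin inhibitor Spink3 (1791 ± 186) were lower but also among the highest in kidney. The same ranking also held short or repeat-like entries in both organs, mmu-mir-689-2, Gm12563 and Gm12913, and Lars2 in kidney, none of which was called; their lengths in the tables make these levels uncertain.

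Several of these genes were all but private to 1 organ. Kap had 15264, 16691, 16059, 14890.4 and 21299 CPM in kidney replicates 0 to 4, from 944181 counts, and 0 counts in all 5 liver libraries, which makes it at least 224921-fold higher in kidney against a floor of 3 counts over the liver group (adjusted p = 6.25e-10, edgeR). Alb had 104277, 99698, 90068, 103954 and 85192 CPM in liver replicates 0 to 4 and 8.26, 10.6, 14.6, 16.9 and 7.24 CPM in kidney. Every liver library was far above every kidney library, and the log2 difference was 13.03 ± 0.44 (SE; adjusted p = 2.82e-11, edgeR). Hamp encodes hepcidin, the liver hormone that blocks iron export, and had 7845, 1854, 2438, 1638 and 1439 CPM in liver against a total of 1 count in kidney. The ratio was 176366-fold (95% counting interval 31654 to 6966095), an interval that covers counting error only. Liver replicate 0 was the high one, and without it the ratio was 101336-fold. Uox, the peroxisomal urate oxidase that humans lack, had 2123, 1808, 2261, 2869.6 and 1804 CPM in liver and 2 counts in all kidney libraries together.

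The genes with the largest differences in favour of kidney were mostly genes of the proximal tubule. Slc34a1, the phosphate transporter of the brush border, had 2079.7, 1973, 2539, 2280 and 1486 CPM in kidney and 0 counts in liver (at least 27664-fold higher in kidney). Umod, which encodes uromodulin of the loop of Henle, had 2309, 2312, 1456, 2192 and 1774 CPM in kidney and 0 counts in liver (at least 26826-fold). The kidney libraries lay close together, replicate 4 being lowest for Slc34a1 and replicate 2 for Umod. The other 8 were Kap, the brush border protease Mep1a (at least 19681-fold), the amino acid transporter partner Tmem27 (at least 18193-fold), the inositol oxygenase Miox (at least 14947-fold), the loop cotransporter Slc12a1 (at least 14158-fold), the organic anion transporter Slc22a6 (at least 11012-fold), Abca13 (at least 8279-fold), all at 0 counts in liver, and Fxyd2, a subunit of the sodium pump, with 1 count in liver, a ratio of 53242-fold (95% counting interval 9556 to 2102964). In favour of liver, beside Hamp and Uox, they were Mug1 and Mug2 (murinoglobulins, broad protease inhibitors), the serpin Serpina3k, Apoa5, and the major urinary protein genes Mup7, Mup10, Mup15 and Mup20. Mup, Mug and serpin genes have near-identical copies, so how reads were split among their members is uncertain. This ranking used fitted log2 differences, which for genes at or near 0 counts depend on the prior count of the fit.

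**Figure D2:**
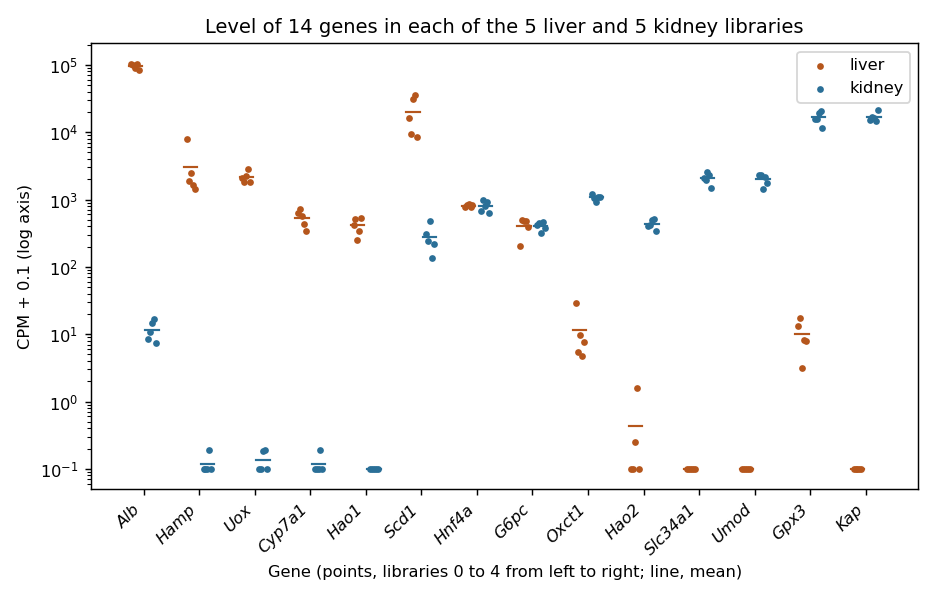
CPM with 0.1 added (log axis) of 14 genes in each library, with points for replicates 0 to 4 from left to right and a line at the mean, liver in brown and kidney in blue. Alb, Hamp, Uox, Cyp7a1 and Hao1 are high in all 5 liver libraries and Hao2, Slc34a1, Umod, Gpx3 and Kap in all 5 kidney libraries, while Hnf4a and G6pc overlap between organs.

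Promoters are printed for 5 genes whose level was almost confined to 1 organ: Alb and Hao1 for liver, Kap, Slc34a1 and Hao2 for kidney. Each is the 250 bases before the annotated start in RefSeq, 5′ to 3′ on the gene's strand, and capitals mark the letters TATAAA or, on the other strand, TTTATA. These letters are a common form of the TATA box, at which the general transcription machinery sets the start of many highly expressed genes, and the scan counted both strands with overlaps allowed. This motif was chosen after the promoters had been seen.
Alb (GRCm38.p6, chr5:90460620-90460869, plus strand): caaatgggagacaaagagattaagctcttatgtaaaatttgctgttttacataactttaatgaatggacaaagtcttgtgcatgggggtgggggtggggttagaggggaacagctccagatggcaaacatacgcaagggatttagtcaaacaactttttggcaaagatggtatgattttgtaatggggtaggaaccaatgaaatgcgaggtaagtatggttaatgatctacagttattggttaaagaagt
Hao1 (GRCm38.p6, chr2:134554353-134554602, minus strand): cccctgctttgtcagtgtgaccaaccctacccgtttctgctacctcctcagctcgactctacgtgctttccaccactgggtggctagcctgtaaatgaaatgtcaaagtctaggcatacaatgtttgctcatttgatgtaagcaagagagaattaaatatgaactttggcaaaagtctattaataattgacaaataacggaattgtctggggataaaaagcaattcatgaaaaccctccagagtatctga
Kap (GRCm38.p6, chr6:133853668-133853917, minus strand): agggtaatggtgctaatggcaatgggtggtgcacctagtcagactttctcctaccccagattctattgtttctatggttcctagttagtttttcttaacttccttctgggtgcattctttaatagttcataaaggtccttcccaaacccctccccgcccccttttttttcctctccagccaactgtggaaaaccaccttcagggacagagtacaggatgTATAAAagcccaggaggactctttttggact
Slc34a1 (GRCm38.p6, chr13:55399398-55399647, plus strand): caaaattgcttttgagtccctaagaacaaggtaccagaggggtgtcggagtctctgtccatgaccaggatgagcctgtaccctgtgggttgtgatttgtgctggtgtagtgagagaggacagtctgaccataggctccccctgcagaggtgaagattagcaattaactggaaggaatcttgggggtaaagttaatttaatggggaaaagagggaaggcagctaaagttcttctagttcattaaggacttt
Hao2 (GRCm38.p6, chr3:98893231-98893480, minus strand): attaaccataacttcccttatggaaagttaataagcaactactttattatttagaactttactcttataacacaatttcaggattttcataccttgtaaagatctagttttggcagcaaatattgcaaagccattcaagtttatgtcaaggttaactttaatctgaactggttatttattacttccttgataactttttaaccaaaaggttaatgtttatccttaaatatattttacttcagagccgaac
Kap holds 1 match, and these letters are not in the other 4 windows. Over all 32851 windows in that table, 12.4% hold a match, and over the 12387 windows of tested genes 7.06% do. No test was made on these shares. The share was 14.7% of 686 windows of genes called higher in liver and 8.95% of 1073 windows of genes called higher in kidney. A match is a description of the letters, and a gene with several starts has several windows.

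Genes of secreted blood and urinary proteins were almost all called, and in favour of liver. Over 6 lists (plasma carriers, coagulation, complement, apolipoproteins, protease inhibitors and major urinary proteins), 107 of 124 tested genes were called higher in liver and 5 higher in kidney, against the 5.69% and 9.61% of all tested genes. Together they took 22.9% ± 1.08 of the counts in liver but 0.484% ± 0.0385 in kidney (SD, n = 5). The plot of list shares shows how far apart the organs lay, list by list.

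**Figure D3:**
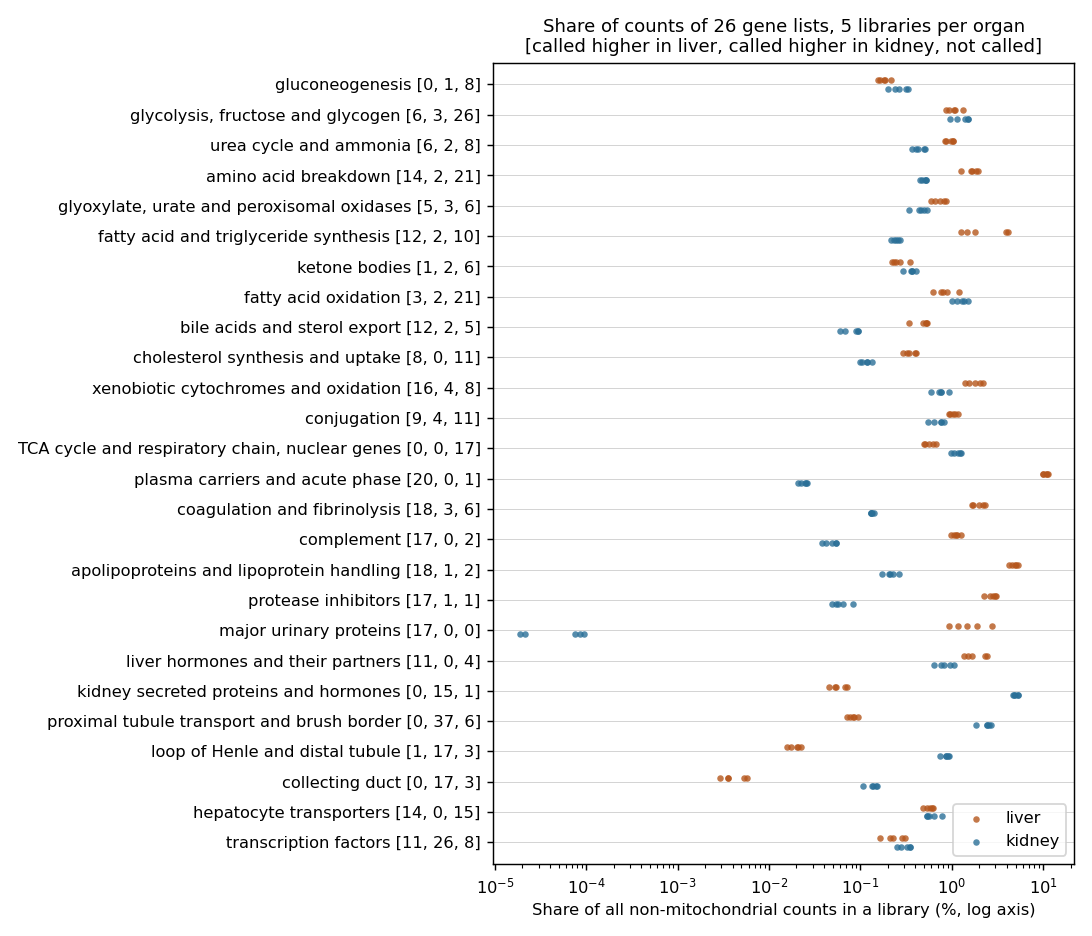
Share of all non-mitochondrial counts of a library (%, log axis) that each of 26 gene lists took, 1 point per library, liver in brown and kidney in blue; brackets give the members called higher in liver, called higher in kidney and not called. The lists of secreted blood proteins lie far to the right in liver, tubule lists in kidney, and the lists of gluconeogenesis and ketone bodies overlap between organs. The TCA cycle list took 0.503% to 0.665% in liver and 0.971% to 1.26% in kidney. Shares are not scaled by TMM factors. On the scaled CPM the TCA cycle list summed to 5767 to 8562 in liver and 7674 to 10401 in kidney, so these ranges overlapped. Some lists, among them gluconeogenesis, ketone bodies and fatty acid oxidation, had the higher mean share in kidney but the higher mean CPM sum in liver.

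Of the plasma carriers and acute phase proteins, 20 of 21 tested were called higher in liver, with a median log2 difference of 9.55 (9.4 with genes at 3 counts or fewer set to their bound or ratio) beside -0.03 over all tested genes. Trf (transferrin, the iron carrier) had 9723 ± 1884 CPM in liver and 2.94 ± 0.402 in kidney, Gc (vitamin D binding protein) 7578 ± 1259.6 and 22 ± 8.54, and Rbp4 (retinol-binding protein) 3878 ± 1111 and 1.13 ± 0.623 (SD, n = 5). The member that was not called was the fetal albumin relative Afp (7.87 ± 3.96 and 1.27 ± 0.68 CPM). Ttr was the member with the highest kidney level, 54.3 to 115 CPM.

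Apolipoprotein and lipoprotein genes gave 18 liver calls and 1 kidney call among 21 tested (median log2 difference 8.98). Apob, the scaffold of very low density lipoprotein, had 18419, 20456, 17628, 17505 and 13991 CPM in liver and 1053, 1061, 900.3, 958 and 648 CPM in kidney. Even the lowest liver library was more than 8 times the highest kidney library, but the kidney level was the highest of any gene on this list there (log2 difference 4.25 ± 0.24, SE). Apoa1 of high density lipoprotein had 9539.7 ± 2432 CPM in liver and 0.91 ± 0.625 in kidney, and Apoe, the ligand that clears remnant particles, 7292 ± 1878 and 60.9 ± 14.9. The kidney call was Lpl, the lipoprotein lipase that frees fatty acids from circulating triglyceride, with 99.5, 10.4, 11.4, 11.1 and 12.8 CPM in liver and 572, 936, 569.8, 519 and 536 CPM in kidney (log2 difference -4.42 ± 0.66). Liver replicate 0 was well above the other liver libraries, and without it the log2 difference was -5.77; kidney replicate 1 was the highest of all. Lpl is also made by adipocytes, and adipocyte markers were present in kidney libraries: Adipoq had 3.33, 10.9, 9.34, 2.46 and 1.17 CPM there and 0 counts in liver, and Ucp1 and Lep were also measured in kidney and at 0 in liver. The 10 adipocyte markers summed to 50.8 to 156 CPM in kidney and 21.7 to 184 CPM in liver, with 2 of 6 tested called higher in kidney (Adipoq and Fabp4) and 2 in liver (Cidea and Cidec, lipid droplet proteins). The Adipoq call held under every alternative that tested it, and the other 3 calls did not: Fabp4 lost its call without kidney replicate 2 or liver replicate 2 or 3 (log2 differences -2.93, -2.83 and -2.98), Cidea without kidney replicate 4 (3.39, adjusted p = 0.0548 by edgeR), and also by limma-voom, with the replicate block (3.42) and with no filter, and Cidec without liver replicate 4 (2.92). The part of fat cells in the Lpl result was not tested.

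Protease inhibitors gave 17 liver calls of 19 tested. The pregnancy zone protein gene Pzp had 7153 ± 763 CPM in liver and 185 ± 73.1 in kidney, and Serpina1e, Serpina1b and Serpina1d, copies of the alpha-1-antitrypsin gene, had 3489, 4652 and 2879 CPM in liver and 0.0812, 7.25 and 64.1 CPM in kidney. The list's kidney call was Serpina1f, which had 121, 153, 82.6, 93.3 and 158 CPM in kidney and 0 counts in liver (at least 1624-fold higher in kidney). All 17 tested Mup genes, which encode the lipocalins of male mouse urine, were called higher in liver. Their levels differed widely among liver libraries. Mup20 had 14024, 14039.5, 2664, 7708 and 8119.7 CPM in liver replicates 0 to 4, Mup3 2040, 12042, 5902, 5076 and 4603 and Mup7 45.1, 2679.5, 319.7, 1406 and 2424, and the list's share of liver counts ran from 0.923% to 2.75%. In kidney the list's share reached at most 9.43e-05% in any library.

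Clotting genes were called in both directions. Of 27 tested, 18 were called higher in liver and 3 in kidney. The fibrinogen chains Fga, Fgg and Fgb had 4190.4 ± 641, 3970 ± 789 and 3224 ± 516 CPM in liver against 33.8 ± 7.96, 9.05 ± 2.6 and 1.98 ± 1.06 in kidney, and Serpinc1 (antithrombin) 2328 ± 432 against 2.05 ± 1.03. The kidney calls were Plau, which encodes the urokinase plasminogen activator (242, 199, 222, 209 and 342 CPM in kidney and 1.37, 1.22, 1.2, 1.96 and 1.22 in liver, log2 difference -7.40 ± 0.24), Plat, the tissue plasminogen activator (20 ± 4.13 and 0.219 ± 0.271 CPM), and Thbd, the endothelial thrombin receptor thrombomodulin (36 ± 5.12 and 2.83 ± 1.04 CPM). All 3 are known to dissolve clots or to limit clotting. Kng1 (kininogen) was called higher in liver at 2658 CPM against 4.67, whereas its paralog Kng2 was not called, at 223 to 322 CPM in liver and 179 to 217 in kidney.

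Complement genes gave 17 liver calls among 19 tested (median log2 difference 7.05). C3, the central component, had 5649.7 ± 1029 CPM in liver and 23.2 ± 8.6 in kidney, Hc (component C5) 1159 ± 166 and 0.0918 ± 0.0635, and C2 1066 ± 243 and 13.2 ± 4.87. C4bp, an inhibitor of the classical pathway, had 827 ± 167 and 0.135 ± 0.167 CPM, and C8g 786 ± 197 and 35 ± 8.38. Among the members not called was Cfp (6.72 to 21.9 CPM in liver and 1.96 to 2.94 in kidney), properdin, an activator of the alternative pathway, which passed the test in favour of liver but by less than 8-fold (log2 difference 2.59 ± 0.33).

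Hormones and their partners split by organ. Among 15 tested genes of liver hormones and their partners, 11 were called higher in liver. Igf1 (insulin-like growth factor 1) had 2180.3 ± 270 CPM in liver and 24.8 ± 3.73 in kidney, Agt (angiotensinogen) 310.3 ± 75.4 and 24.4 ± 3.22, and Igfbp2 188 ± 49.3 and 0.507 ± 0.99. Sepp1 was among the 4 not called: 10570.3 to 25917 CPM in liver and 3476 to 6398 in kidney. Hamp2, the second hepcidin gene, followed Hamp, with 713, 117, 249.5, 113 and 88.1 CPM in liver and 0 counts in kidney (at least 4850.1-fold higher in liver, and at least 2688-fold without liver replicate 0).

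Genes of proteins and hormones that the kidney secretes or senses gave 15 kidney calls of 16 tested and held 5.02% ± 0.279 of kidney counts against 0.0582% ± 0.0108 of liver counts. Kap and Gpx3 made up most of this. Gpx3 had 15606, 15902, 19417, 20899.6 and 11709 CPM in kidney and 13, 17.5, 3.0, 8.13 and 7.86 CPM in liver (log2 difference -10.73 ± 0.52, adjusted p = 7.99e-10, edgeR). Klk1 (kallikrein, which releases kinins from kininogen) had 1144 ± 399 CPM in kidney and 0.085 ± 0.117 in liver, and Napsa, an aspartic protease, 1051 ± 185 and 0.759 ± 0.57. Named after their values were seen, Egf (epidermal growth factor, cut from the distal tubule) had 566 to 784 CPM in kidney and 0 to 0.996 in liver, Vdr (the vitamin D receptor) 139 to 246 and 0 to 0.15, and Ren1 (renin) 6.28 to 19.6 and 0 to 0.114. Renin and its substrate Agt were called in opposite organs.

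Gluconeogenesis genes gave 1 call among 9 tested, beside 15.3% of all tested genes. None of the gluconeogenesis genes was called higher in liver by edgeR, DESeq2 or limma-voom, and 2 were higher in liver at an unadjusted p below 0.05 by edgeR. Of the 8 genes not called in either direction, 4 had an adjusted p above the threshold (edgeR), and the others passed it but differed by less than 8-fold. The kidney call was Fbp2 (8.9 ± 3.88 and 0.2 ± 0.257 CPM), which is known as the muscle form of fructose bisphosphatase. G6pc, the catalytic subunit of glucose-6-phosphatase and a gene named after its values were seen, had 204, 500.4, 478, 472 and 395 CPM in liver and 424, 455, 319, 462 and 380.1 CPM in kidney. The ranges overlapped, and the log2 difference was 0.01 ± 0.23 (adjusted p = 0.983, edgeR). Pck1, the cytosolic PEP carboxykinase, had 758, 348, 327, 382 and 1288 CPM in liver and 647, 1423, 947, 1190.2 and 524 in kidney. Its ranges overlapped as well (log2 difference -0.61 ± 0.40, adjusted p = 0.218). A p above the threshold does not show that the levels were equal.

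Of 35 genes of glycolysis, fructose and glycogen, 6 were called higher in liver, 3 in kidney and 26 neither way, against 5.69% and 9.61% of all tested genes called higher in liver and in kidney. Pklr (liver pyruvate kinase) had 201, 232, 407, 420.1 and 168 CPM in liver and 14.8, 12.3, 12.2, 12.9 and 13.2 CPM in kidney, every liver library being above every kidney library (log2 difference 4.45 ± 0.28). Gys2 (liver glycogen synthase) had 190.2 ± 64.5 and 12.3 ± 2.75 CPM and Pygl (liver glycogen phosphorylase) 569.5 ± 95.4 and 14.3 ± 2.03 in liver and kidney. The kidney calls were the high-affinity hexokinase Hk1, the enolase Eno2 and the lactate dehydrogenase subunit Ldhb. Ldhb had 736, 750.2, 761, 887 and 595 CPM in kidney and 4.12, 2.04, 2.4, 4.2 and 1.99 CPM in liver (log2 difference -7.94 ± 0.28, adjusted p = 4.9e-11, edgeR). Its partner subunit Ldha was not called (842 to 1474 CPM in liver and 424 to 752 in kidney, log2 difference 1.01 ± 0.22).

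The urea cycle was divided within its own steps. Of 16 urea cycle and ammonia genes, 6 were called higher in liver and 2 in kidney, against 5.69% and 9.61% of all tested genes. The mitochondrial entry enzymes Cps1 and Otc had 4089, 3203, 2345, 3244 and 2318 and 737, 702, 532, 768 and 773 CPM in liver replicates 0 to 4, and 6 and 1 counts in all kidney libraries together. Arg1, the arginase that releases urea, had 1659 ± 165 CPM in liver and 0.799 ± 0.486 in kidney. The middle enzymes, which make arginine, were measured in both organs: Ass1 had 924 to 2054 CPM in liver and 858 to 1348 in kidney and Asl 337 to 461 and 63.6 to 108, neither called (both named after their values were seen). With gene lengths as an offset Asl was called higher in liver (log2 difference 3.41). Among the kidney calls was Gatm, the first enzyme of creatine synthesis (484 ± 136 and 21.2 ± 11.2 CPM in kidney and liver). Gamt, the enzyme of the second creatine step, was called the other way, with 197, 205, 161, 304 and 205 CPM in liver and 14.1, 12.9, 14.4, 11.6 and 11.9 CPM in kidney (log2 difference 4.04 ± 0.19, against -4.51 ± 0.35 for Gatm).

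Amino acid breakdown gave 14 liver and 2 kidney calls among 37 tested genes (median log2 difference 1.58), against 5.69% and 9.61% of all tested genes. Cdo1, which oxidises cysteine, had 3741 ± 829 CPM in liver and 182 ± 35.6 in kidney. Bhmt, which remakes methionine from homocysteine, had 2765 ± 1169 and 3.38 ± 1.62, and Mat1a, which makes S-adenosylmethionine, 2751 ± 473 and 0.207 ± 0.185. Hpd of tyrosine breakdown had 1406 ± 304 and 36.5 ± 14.8 CPM and Tdo2, which opens the tryptophan ring, 1344 ± 364 and 0.838 ± 0.324. The branched-chain genes Bcat1 (9.17, 20.8, 11.2, 15.4 and 28.1 CPM in kidney and 0 counts in liver) and Bckdha (53.2 ± 10.4 and 5.23 ± 1.26 CPM in kidney and liver) were called higher in kidney. With each table's gene length as an offset the Bckdha log2 difference was -1.51 and no longer called. Peroxisomal and related oxidases were called in both directions. Hao1, the glycolate oxidase, had 423, 508, 249.9, 346 and 540.5 CPM in liver and 0 counts in kidney. Its paralog Hao2, an oxidase of longer hydroxy acids, had 398, 424, 490.5, 517 and 345 CPM in kidney and 0, 0, 0.15, 1.49 and 0 CPM in liver (log2 difference -10.01 ± 0.60, adjusted p = 6.88e-09, edgeR). Each was far above the other organ's range in all 5 libraries, and without liver replicate 3 the Hao2 difference was -13.17. Dao (D-amino acid oxidase) with 159 ± 19.3 CPM and Miox with 1119 ± 246 CPM were measured in kidney and had 0 counts in liver, while Agxt (89 ± 28.9 and 0.0519 ± 0.116 CPM in liver and kidney), the aminotransferase that removes glyoxylate, and the aldehyde oxidase gene Aox3 (543 ± 243 and 0.626 ± 0.389) were called higher in liver.

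Fat synthesis genes were called mostly in favour of liver. Of 24 tested, 12 were called higher in liver and 2 in kidney (median log2 difference 2.84), against 5.69% and 9.61% of all tested genes. Scd1, the stearoyl-CoA desaturase, had 16079.6, 9262, 31448, 35679.9 and 8613 CPM in liver replicates 0 to 4 and 313, 243, 474, 135 and 220.1 CPM in kidney. Liver libraries differed among themselves by several fold, with replicates 2 and 3 highest, but none came near the kidney range (log2 difference 6.19 ± 0.55, adjusted p = 3.76e-07, edgeR). Thrsp, a nuclear and cytosolic protein tied to lipogenesis, had 1978 ± 1218 and 17.9 ± 11.8 CPM, Fasn (fatty acid synthase) 1499.7 ± 975 and 53.5 ± 24.7, and the elongases Elovl2 and Elovl5 1777 ± 321 and 1626 ± 581 CPM in liver against 26.9 ± 7.0 and 68.8 ± 10.6 in kidney. The kidney calls were another elongase, Elovl7 (159, 173, 127, 150.5 and 154 CPM in kidney and 0.801, 0.204, 0.449, 1.21 and 0.332 in liver), and Mogat1, an acyltransferase of monoacylglycerol (67.6 ± 19 and 3.46 ± 2.11 CPM).

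Of 9 ketone body genes, 1 was called higher in liver, 2 higher in kidney and 6 neither way. Of all tested genes, 5.69% and 9.61% were called higher in liver and in kidney. Oxct1, which activates acetoacetate so that it can be burnt, had 1217, 1064, 909, 1099 and 1075 CPM in kidney and 29.1, 5.29, 9.58, 4.67 and 7.64 CPM in liver (log2 difference -6.56 ± 0.50, adjusted p = 8.18e-08, edgeR). Liver replicate 0 held the highest liver value of Oxct1, and without it the log2 difference was -7.30. Bdh2 was the other kidney call (135 ± 9.63 and 7.12 ± 0.883 CPM). Fatty acid oxidation gave 3 liver and 2 kidney calls among 26 tested genes, a share near the 15.3% of all tested genes. Of the 21 genes not called, 8 had an adjusted p above the threshold (edgeR), and the others differed by less than 8-fold. Acsl1 (2094 ± 567 and 211 ± 37.1 CPM in liver and kidney), which activates long-chain fatty acids, Acaa2 (1076 and 131), a mitochondrial thiolase, and Cyp4a14 (712 and 36.9), an omega-hydroxylase, were called higher in liver. The Acaa2 call was lost without kidney replicate 4 or liver replicate 4 (log2 differences 2.92 and 2.95). Acsm2, a medium-chain acyl-CoA synthetase, had 2784, 2893, 2597, 2744 and 2256 CPM in kidney and 0, 0, 0, 0.187 and 0.221 in liver, and Cyp4b1 2916 ± 663 and 30.6 ± 7.69. The 17 nuclear genes of the TCA cycle and respiratory chain gave no call in either direction by edgeR (median log2 difference -0.32). By edgeR 7 of them differed at an unadjusted p below 0.05, and none was called by DESeq2 or limma-voom. At an adjusted p below 0.05, 7 differed by edgeR, 7 by DESeq2 and 7 by limma-voom, all by less than 8-fold. Atp5b, a subunit of ATP synthase, had 2636 to 4109 CPM in liver and 2753 to 4373 in kidney.

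Bile acid synthesis and export was called in favour of liver for 12 of 19 tested genes, against 5.69% of all tested genes. Cyp7a1, the rate-limiting enzyme of bile acid synthesis, had 628, 715, 568, 429.7 and 346 CPM in liver and 1 count in kidney. Abcb11, the pump that moves bile salts into the canaliculus, had 451, 427, 600.4, 415 and 490.1 CPM in liver and 0 counts in kidney. Slc10a1 and Slco1b2, which take bile acids and other anions up from blood, had 1036 ± 374 and 1435 ± 413 CPM in liver and 1.99 ± 0.471 and 0.14 ± 0.0969 in kidney, and Slc27a5 464 ± 87.8 and 0.186 ± 0.166. Both kidney calls form 1 transporter: Slc51a and Slc51b, the subunits of the basolateral organic solute transporter, had 68.1 ± 29.4 and 49.9 ± 9.52 CPM in kidney and 0.086 ± 0.127 and 1.28 ± 1.14 in liver. Of the cholesterol synthesis and uptake genes, 8 of 19 were called higher in liver, against 5.69% of all tested genes. Fdps, an early enzyme of the sterol pathway, had 194 ± 77 and 3.33 ± 1.32 CPM and Sc5d, a late one, 844 ± 148 and 36 ± 5.37; Fdft1 (squalene synthase) and the sterol sensor partner Insig1 were called as well (log2 differences 3.63 ± 0.21 and 3.86 ± 0.28, SE).

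Enzymes of foreign compounds were called in both directions. Of 28 cytochromes and other oxidising enzymes, 16 were called higher in liver and 4 in kidney, against 5.69% and 9.61% of all tested genes. Cyp3a11 had 2708 ± 1380.2 CPM in liver and 0.161 ± 0.0463 in kidney, Cyp2c29 1869 ± 817 and 0.606 ± 0.198, and Cyp2f2 1222 ± 159 and 4.26 ± 1.02. The kidney calls were Fmo2 (607 ± 115 and 29.1 ± 7.26 CPM in kidney and liver), Cyp2j13 (473 ± 88.2 and 0.991 ± 0.495), Cyp2a4 (375, 500.1, 280.3, 379 and 365 CPM in kidney and 56, 0.814, 2.25, 3.18 and 0.221 in liver, where replicate 0 made most of the mean, with a log2 difference of -4.90, or -7.79 without it) and Cyp2j11, with 234, 289, 201, 209 and 206 CPM in kidney and 0 counts in liver. Cyp2e1, named after its values were seen, was not called: 4613 to 13515 CPM in liver and 915 to 1767 in kidney (log2 difference 2.70 ± 0.32). Conjugating enzymes gave 9 liver and 4 kidney calls of 24, against 5.69% and 9.61% of all tested genes. Within the glucuronosyltransferase family Ugt2b, Ugt2b34 (1276 and 28 CPM in liver and kidney), Ugt2b36 (772 and 0.067) and Ugt2b5 (769 and 2.38) were called higher in liver and Ugt2b37 (1.24 and 134) and Ugt2b38 (4.3 and 634) higher in kidney. Cyp2c, Cyp2j, Cyp4a and Ugt2b genes have close copies, so the split of reads among them is uncertain.

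Tubule transport genes were called higher in kidney almost throughout. Over the 3 lists of tubule transport, 71 of 84 tested genes were called higher in kidney and 1 higher in liver, and they took 3.39% ± 0.398 of kidney counts and 0.105% ± 0.0107 of liver counts. In the proximal tubule list 37 of 43 were called (median log2 difference -9.29, -8.33 with bounds). Lrp2 (megalin, the receptor that takes up filtered proteins) had 4540.5, 3715, 3560, 3320.3 and 1915 CPM in kidney and 3.09, 1.02, 0.15, 1.03 and 2.88 CPM in liver (log2 difference -10.96 ± 0.57, adjusted p = 1.46e-09, edgeR). Slc7a13, an acidic amino acid transporter, had 1501 ± 304 CPM in kidney and 0.223 ± 0.261 in liver. Slc4a4, the basolateral bicarbonate exit, was called with a substantial liver level: 160.3 to 209 CPM in liver and 1105 to 1827 in kidney (log2 difference -3.13 ± 0.19). The 6 members not called, with liver levels from 10.6 to 241.0 CPM, were Slc3a1, Slc23a1, Slc26a1, Abcc4, Anpep and Mme. Without liver replicate 0 Abcc4 was called higher in kidney (log2 difference -3.34).

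Further along the nephron 17 of 21 loop and distal genes and 17 of 20 collecting duct genes were called higher in kidney. Slc12a1, the target of loop diuretics, had 1190.1, 1237, 871, 924 and 1078 CPM in kidney and 0 counts in liver, and Slc12a3, the target of thiazides, 498, 538, 675, 682 and 413 and 0, 0.204, 0, 0 and 0.554 CPM in kidney and liver. Kcnj16, a potassium channel, had 837 ± 232 and 2.46 ± 0.876 CPM. The loop gene called the other way was Cldn14, a tight junction claudin, with 8.01, 6.92, 6.59, 5.7 and 5.87 CPM in liver and 0 counts in kidney. In the collecting duct Car2 and Car12 (carbonic anhydrases) had 280.1 ± 48.5 and 175 ± 35.3 CPM in kidney and 9.96 ± 3.13 and 0.212 ± 0.202 in liver, Hsd11b2, which shields the mineralocorticoid receptor from glucocorticoid, 69.9 ± 15.4 and 0.194 ± 0.2, and the proton pump subunit Atp6v1g3 52.2 ± 7.97 with 0 counts in liver. Aqp4, a basolateral water channel, was called too (50.2 ± 12.2 and 4.64 ± 1.45 CPM), but not with each table's gene length as an offset (log2 difference -1.85). Aqp2, the vasopressin-controlled water channel, was named after its values were seen, with 25.6, 30.3, 26.4, 19 and 19.7 CPM in kidney and 0 counts in liver.

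Of 29 hepatocyte transporters, 14 were called higher in liver, against 5.69% of all tested genes, and 15 were not called. Slc38a4, an amino acid transporter, had 1079 ± 112 CPM in liver and 2.77 ± 0.558 in kidney, Aqp9, the glycerol channel, 366 ± 49.4 and 0.137 ± 0.232, Slc7a2, a transporter of cationic amino acids, 601 ± 142 and 12.8 ± 1.32, and Slc38a3, a glutamine transporter, 444 ± 119.8 and 14.8 ± 3.54. Slc25a47, a mitochondrial carrier, had 284 ± 62.6 and 0.652 ± 0.302 CPM. Slco1a1, an anion transporter of both organs, was not called (219.8 to 780.2 CPM in liver and 165 to 479.5 in kidney), whereas its relative Slco1a6 had 216, 192, 181, 198 and 185 CPM in kidney and 0 counts in liver.

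Related genes were set side by side in 17 pairs, of which 16 could be joined. In 2 pairs both genes were called in opposite organs: Hao1 and Hao2, and Slc7a2 and Slc7a7. On the scale of CPM per kilobase, Slc7a2 and Slc7a7 stood at 65.8 and 3.31 in liver and at 1.41 and 38.6 in kidney. In 10 pairs 1 gene was called, among them Ldha and Ldhb, Pklr and Pkm2, Gys2 and Gys1, Pygl and Pygb, Arg1 and Arg2, Mat1a and Mat2a, Bhmt and Bhmt2, and Slc22a7 and Slc22a6. Mat2a, for example, was not called (96.5 to 149.9 CPM in liver and 484 to 724 in kidney, log2 difference -2.28 ± 0.18), beside a log2 difference of 13.59 ± 0.43 for Mat1a. In 3 pairs neither was called: Slc2a2 and Slc2a1, Pck1 and Pck2, and Prodh2 and Prodh. The aldehyde oxidase genes Aox3 and Aox1 were both called higher in liver.

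**Figure D4:**
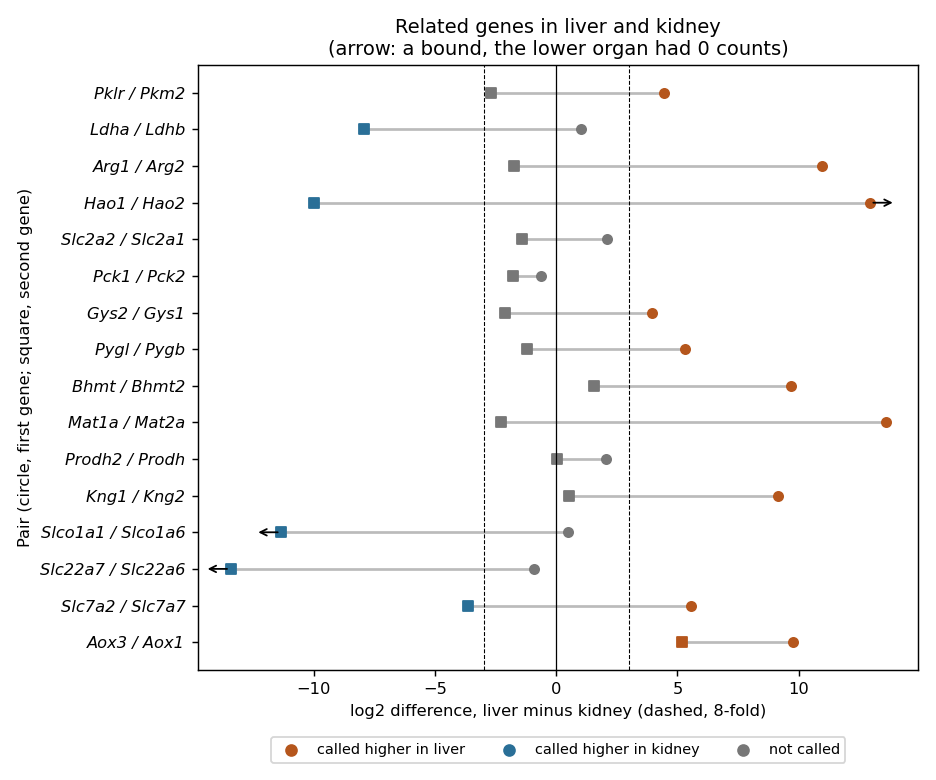
log2 difference, liver minus kidney (x axis), of both genes in 16 pairs of related genes; circles are the first and squares the second gene named, coloured by call, dashed lines mark 8-fold, and arrows mark bounds where the lower organ had 0 counts (genes with 1 to 3 counts are at their ratio). Pairs such as Hao1 and Hao2 span the plot, while Pck1 and Pck2 or Prodh2 and Prodh lie within the dashed lines.

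Among the listed transcription factor genes more were called higher in kidney than in liver. Of 45 tested, 11 were called higher in liver, 26 higher in kidney and 8 neither way (median log2 difference -3.82). Of all tested genes 5.69% were called higher in liver and 9.61% higher in kidney. The list was chosen with earlier results known, so its balance does not describe transcription factors at large. Onecut2, a homeodomain factor of endoderm, had 205, 476, 511, 422 and 438 CPM in liver and 0.227, 0.0891, 0.173, 0.0878 and 0 CPM in kidney (log2 difference 11.56 ± 0.42), Prox1, a homeodomain factor of the hepatocyte lineage, 274 ± 52.1 and 17.8 ± 2.21, Creb3l3, a membrane-bound factor of lipid metabolism, 173 ± 36 and 0.543 ± 0.655, Cebpa, a factor of hepatocytes and adipocytes, 129 ± 11.4 and 9.52 ± 2.63, and Nr1i3, the constitutive androstane receptor, 122 ± 31.1 and 0.117 ± 0.135. Foxa2, a pioneer factor of liver and gut and named after its values were seen, had 19.4 to 32.6 CPM in liver and 0 counts in kidney. On the kidney side Tfcp2l1, a factor of the distal nephron and collecting duct, had 291, 416, 425, 436 and 246 CPM in kidney and 2.75, 10.2, 14.5, 13.9 and 15.7 in liver (log2 difference -4.99 ± 0.39), Pax8, a nephron lineage factor, 115 ± 15.2 and 1.28 ± 1.1, and Esrrg, an orphan nuclear receptor, 102 ± 25.4 and 11.4 ± 3.35. Hoxd8 of the body-axis cluster had 97.8, 107, 119, 127 and 87.9 CPM in kidney and 0 counts in liver (at least 1441-fold higher in kidney), and Pax2, named after its values were seen, had 24.5 to 28.9 CPM and 0 counts.

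Hnf4a was among the factors not called. Hnf4a, a nuclear receptor of liver, proximal tubule and gut and named after its values were seen, had 781, 828, 863, 778 and 819.7 CPM in liver and 674, 969, 799, 905 and 636 CPM in kidney. The ranges overlapped, and the log2 difference was 0.03 ± 0.16 (adjusted p = 0.89, edgeR).

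**Figure D5:**
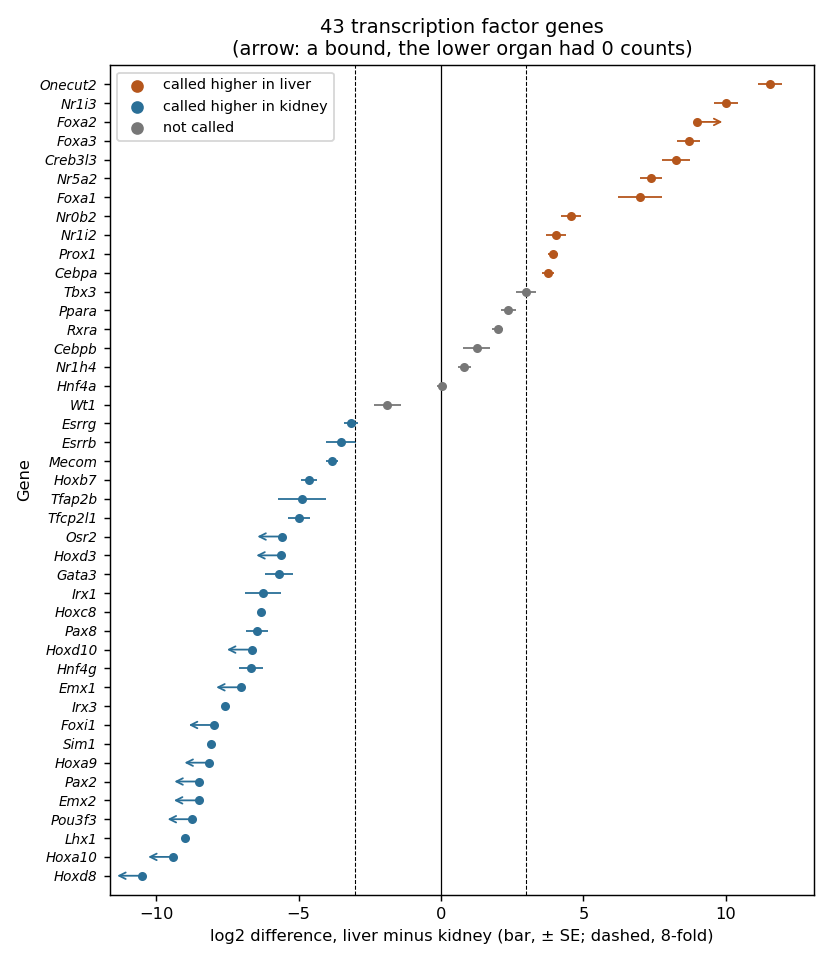
log2 difference, liver minus kidney (x axis), of 43 transcription factor genes, with bars of ± SE, coloured by call, dashed lines at 8-fold, arrows for bounds where the lower organ had 0 counts, and no bar for genes with 1 to 3 counts there, placed at their ratio. Hnf4a lies at 0, Onecut2 and Foxa2 far to the liver side and Hoxd8 and Hoxa10 far to the kidney side.

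Markers of other cell types were mixed, and some of them mark cells of 1 organ only, such as Kupffer cells or the glomerulus. Of all tested genes 5.69% were called higher in liver and 9.61% higher in kidney. Median log2 differences were 2.97 over macrophage, 0.25 over endothelial, 0.05 over stellate cell and fibroblast, -2.3 over glomerular and -0.5 over erythroid markers. Of 11 macrophage markers 5 were called higher in liver, all of them genes of Kupffer or other resident macrophages. Clec4f, a receptor of Kupffer cells, had 92.9, 87.3, 56.1, 60.1 and 63 CPM in liver, Cd5l 35.7 to 264 and Marco 1.83 to 17.3, each with 0 counts in kidney. The 11 macrophage markers summed to 308 to 903 CPM in liver, highest in replicate 0, and 54.8 to 82.8 in kidney. Vsig4 and Timd4 had 68.4 ± 19.9 and 14.4 ± 4.19 CPM in liver and 0.0712 ± 0.159 and 0.24 ± 0.291 in kidney. Of 12 endothelial markers the genes of liver sinusoids Stab2 (65.5 ± 11.6 and 0.907 ± 0.328 CPM in liver and kidney), Lyve1 (20.4 ± 13.2 and 0.796 ± 0.698), Clec4g (73 ± 26.4 and 0.0349 ± 0.0477) and Oit3 (31.4 ± 7.46 and 0.114 ± 0.12) were called higher in liver and Emcn (6.82 ± 2.39 and 73.9 ± 12.3) higher in kidney. Stellate cell and fibroblast markers gave 3 liver calls of 12, namely Lrat, which esterifies retinol for storage (151 ± 51.9 and 6.87 ± 1.72 CPM in liver and kidney), Reln (123 ± 31.9 and 2.18 ± 0.859) and Dcn (375 ± 136 and 40.5 ± 10.8), the last of which lost its call without liver replicate 0 (log2 difference 2.97). Duct markers Epcam (50 ± 8.22 and 0.584 ± 0.559 CPM in kidney and liver), Krt7 (27.7 ± 3.98 and 1.04 ± 0.731) and Cftr (14.3 ± 3.38, with 0 counts in liver) were called higher in kidney and Sox9 (15.5 ± 5.36 and 1.26 ± 0.39 in liver and kidney) higher in liver. Of 10 glomerular markers 4 were called higher in kidney, among them Nphs1, Podxl and Kirrel. Lymphocyte markers gave no call among 5 tested by edgeR, DESeq2 or limma-voom, and 0 were past an unadjusted p of 0.05 by edgeR and 1 by DESeq2. Erythroid markers gave 1 call of 5, Alas2 (43.4 to 88.5 CPM in liver and 5.7 to 8.41 in kidney), lost without liver replicate 4 (log2 difference 2.95).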

How the data were processed

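RNA-seq of whole liver and kidney was counted per gene by the authors. Per the submitters' processing notes, TopHat2 2.0.11, featureCounts of Subread, DESeq and edgeR were used with mm9. The deposited kidney table's name refers to edgeR and its column headers to mm9 alignments with a quality mark, and the liver table's name refers to useq. Counting settings and strand are not given in the sources used here. Both tables hold raw counts, per the file headers; the deposited kidney values, checked as estimated counts, were whole throughout and needed no rounding.

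Tables were joined by Ensembl identifier, mitochondrial genes were removed, and genes were filtered with filterByExpr at a minimum count of 10, scaled by TMM and tested in R 4.3.3 with edgeR 4.0.16 (quasi-likelihood, robust), liver minus kidney, 5 against 5. Benjamini-Hochberg adjustment ran over all tested genes. Floors of 3 counts over a group and 95% intervals cover counting error only. Alternatives included DESeq2 1.42.0 and limma 3.58.1 (voom). On counts simulated for this comparison, 50 of 50 genes changed 8-fold passed the adjusted p and 28 reached the 8-fold limit; of those changed 16-fold, 49 of 50 did.

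The members and gene lists were chosen with earlier results of these data known. Named were the 10 largest differences each way among called genes reaching 100 CPM, the highest genes per kilobase, up to 5 called genes of highest level per list and direction (with no call, the 2 highest members), and all genes of the related pairs. Named after their values were seen were Abcc4, Afp, Anpep, Aqp2, Asl, Ass1, Cfp, Cyp2e1, Egf, Foxa2, G6pc, Hnf4a, Hoxa10, Lep, Mme, Onecut1, Pax2, Ren1, Slc23a1, Slc26a1, Slc3a1, Ucp1 and Vdr. Promoters came from the RefSeq table of GRCm38.p6, a build other than that of the counts. Some genes are counted within their lists and not reported here by name.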

Additional observations from a re-analysis of the deposited data

Results flagged for a closer look

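In each group of 5 a library was listed when its gap to the nearest other, divided by the range, passed Dixon's limit of 0.71. Gene levels entered as log2 of CPM plus 1, and shares of counts as they were. The CPM values printed below therefore need not pass the limit themselves. The rule was looked at in 425 groups of values and met in 28, and chance alone meets it in about 1 in 20. Liver replicate 0 accounted for 12 of them and kidney replicate 4 for 6.

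In CPM, liver replicate 0 was low for G6pc (204, others 395 to 500.4), the homeodomain factor Onecut2 (205, others 422 to 511), Podxl (1.72, others 7.53 to 10.7) and Tfcp2l1 (2.75, others 10.2 to 15.7), and high for the lipase Lpl (99.5, others 10.4 to 12.8) and the brain form of glycogen phosphorylase, Pygb (14.5, others 5.7 to 6.72). Its share of counts was low for the bile acid list, at 0.337% (others 0.489% to 0.536%). It was high for the markers of macrophages, at 0.0602% (others 0.0226% to 0.0314%), lymphocytes, at 0.00328% (others 0.000525% to 0.0012%), neutrophils, at 0.00163% (others 0.000227% to 0.000378%), stellate cells and fibroblasts, at 0.106% (others 0.0537% to 0.0634%), and skeletal muscle, at 0.00259% (others 4.39e-05% to 0.000189%).

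In the other liver libraries, replicate 2 was low for Apoa1 (5450.2, others 9486 to 11814) and Otc (532, others 702 to 773), and replicate 3 was high for Plau (1.96, others 1.2 to 1.37) and for the erythroid list, at 0.0272% (others 0.0124% to 0.0145%). Kidney replicate 4 was low for Abca13 (432, others 652 to 681), Car12 (115, others 177 to 209), Slc26a1 (61.6, others 84.7 to 91.9) and Slc4a4 (1105, others 1694 to 1827), and for Acaa2 (88.2, others 135 to 148) and Trf (2.24, others 3.03 to 3.2). Kidney replicate 0 was high for Insig1 (71.3, others 49.2 to 52.1), Serpinc1 (3.87, others 1.34 to 1.84) and Thbd (44.9, others 32.2 to 35.3), kidney replicate 1 for Cyp2j13 (626, others 398 to 453) and Lpl (936, others 519 to 572), and kidney replicate 2 for Hk1 (33.1, others 26.3 to 27.6).

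Genes in only 1 of the tables entered no comparison. They held at most 7.1% of the non-mitochondrial counts of a liver library and at most 4.48% of those of a kidney library.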

How the results depend on the processing

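The counts of 788 liver and 1330 kidney calls stayed within 1.5 times under RLE, upper quartile or no factors, mitochondrial or dominant genes kept or left out, a CPM filter, DESeq2, limma-voom, glmTreat and a 16-fold limit. With no filter they were 1227 and 2265 among 23541 genes tested, and with a 4-fold limit the liver count was 1194. With only genes of the same start and end in both tables they were 455 and 747 among 8335 tested, and with gene lengths within 10%, chosen after seeing the data, the kidney count was 848 among 9673; fewer genes were tested in both. Leaving out 1 library gave 799 to 859 liver and 1338 to 1476 kidney calls among 14032 to 14200 genes tested, more than in the main fit. Of the 788 liver and 1330 kidney calls of the main fit, 759 to 780 and 1259 to 1320 were kept. The mitochondrial difference was 9.45 to 14.21 percentage points.

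The replicate block gave 768 liver and 1415 kidney calls. Same-numbered libraries correlated at 0.261, -0.053, 0.278, 0.115 and -0.087 (replicates 0 to 4, across 10563 genes), with 3 of 5 above 0.1; since not every pair was, the numbers are not taken to pair the organs. Not every library correlated best with its own number.

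Of 217 named genes tested, Kng2 changed sign, to -0.21 without normalization factors (not called either way; the cause was not tested). Beside the 18 named genes that lost a call, 4 gained one with the 8-fold limit kept: Abcc4, Asl, Pkm2 and Slc3a1. Leaving out 1 library moved the fold of 27 named genes by more than 1.5 times, in each case to a larger difference, where both organs had more than 3 counts; those moved by liver replicate 0 were Abcc4, Cyp2a4, Lpl, Oxct1 and Slc51b. Of 51 named genes with fewer counts in 1 organ, leaving out a library of the other organ (chosen after seeing the data) lowered the ratio or bound of 5 by more than 1.5 times: Hamp, Hamp2 and Cd5l without liver replicate 0, Mup15 without liver replicate 1 and Lep without kidney replicate 1.

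Depth limits the genes at 0 in 1 organ to bounds: the floor of 3 counts over a group is 0.0749 CPM in liver and 0.0528 CPM in kidney.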

Other observations

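A few genes of the lists were not tested because too few libraries reached the count minimum, yet were far from 0 in single libraries. Onecut1, the relative of Onecut2 among hepatocyte factors, had 0.687, 64.1, 62.4, 16.4 and 9.85 CPM in liver replicates 0 to 4 and 0 counts in kidney. Ucp1, the uncoupling protein of brown fat, had 11.3, 0.712, 13.3, 0.439 and 5.32 CPM in kidney replicates 0 to 4 and 0 counts in liver, and Lep (leptin, from fat cells) 0.53, 9.79, 3.63, 0.527 and 0 CPM in kidney. The levels of both fat genes varied several fold among kidney libraries, as those of Adipoq did. No test was made on these values.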
